A study of Arabidopsis thaliana with 9 samples.

Results

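The UGT genes of Arabidopsis thaliana were described here in whole roots fixed during and after a parabolic jet flight. The members were the genes whose symbol starts with UGT followed by a number and that had a probe set naming 1 gene. There were 51 such genes among the 16550 named genes tested, and every one of them entered the tests, since no filter on low values was applied. They came from 12 families (71 to 89) and 23 subfamilies, of which UGT71C, UGT73B and UGT85A had 5 members each. The rule for members used symbols and no measured value.

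All groups were roots of 10-day-old seedlings grown in continuous light, of the cultivar Wassilewskija (WS), carrying pCaMV35S:14-3-3κ:GFP, a 14-3-3 protein fused to GFP and driven in most tissues by a viral promoter. The first-actuated roots (n = 3) were fixed in RNAlater right after a climb at 4 g of about 30 s and some 10 s of microgravity, and the last-actuated roots (n = 3) after level flight of about 1.5 min. The ground roots (n = 3) were fixed in a tube held on the ground while the jet flew. No roots without the transgene were compared, and the labels do not state how many independent lines carry it. Each group's 3 replicates were roots of a single tube. An effect of the tube itself and one of the condition cannot be told apart, and p-values here reflect only how far samples of the same tube differ.

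UGTs, the uridine diphosphate glycosyltransferases, move a sugar from an activated nucleotide donor onto small molecules, and so change how soluble, active or mobile these are. Their acceptors in plants include hormones such as auxin, cytokinin, abscisic acid and salicylate, flavonols and lignin precursors, and foreign compounds. In the naming system the number gives the family, the letter the subfamily and the last number the gene, and genes of 1 subfamily often lie side by side on a chromosome.

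All values below are normalized log2 expression values from 1-colour arrays, and a difference is the first-named tube minus the second. A gene was called where limma gave an adjusted p under 0.05 after Benjamini-Hochberg adjustment over the 16550 genes, and n was 3 arrays in every tube. The array medians over these genes were 2.13 to 2.21. The median SD of the members was 0.13 in the first-actuated and 0.17 in the last-actuated tube, against 0.18 in the ground tube. Of the listed root markers 2 of 10 were measured, the root hair expansins EXPA7 and EXPA18, with a summed level of 8.73 to 10.00 in first-actuated, 8.74 to 9.21 in last-actuated and 8.74 to 9.53 in ground roots. EXPA18 rose in first-actuated over ground roots (0.96, limma adjusted p = 0.0203) and EXPA7 had -0.63 (0.0685). Of the shoot markers 2 of 8 were measured, RCA and LHCB4.1, both above the median gene mean, with summed levels of 11.26 to 11.60 in first-actuated, 11.28 to 11.34 in last-actuated and 11.35 to 11.75 in ground roots. The part of either marker list in the results was not tested. In whole roots, fewer cells of a type and less RNA per cell cannot be told apart.

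The first comparison asked which UGT genes differed in roots fixed right after microgravity. Right after microgravity, 4 of the 5 UGT73B genes stood above the ground roots and UGT85A2 stood below them. In all, 4 of 51 UGT genes (7.84%) rose, beside 3.02% of all genes tested, and 1 (1.96%) fell, beside 1.67%. These counts are small, and the share that fell lay near the background. The median difference of the 51 genes was 0.037, beside 0.0098 over all genes, and 30 were positive and 21 negative. Without the UGT73B genes the median of the other 46 was 0.033.

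The UGT73B genes encode enzymes that act in vitro on flavonols, benzoates and foreign compounds, and several are known as stress- and pathogen-induced. They lie in 2 blocks of direct neighbours, UGT73B3 (AT4G34131), UGT73B2 (AT4G34135) and UGT73B1 (AT4G34138) on chromosome 4, and UGT73B5 (AT2G15480) and UGT73B4 (AT2G15490) on chromosome 2. No other protein-coding gene lay between the members of either block in the gene table.

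UGT73B2, whose product glucosylates flavonols in vitro, read 4.02, 4.16 and 3.94 in the first-actuated roots, 3.77, 3.88 and 3.87 in the last-actuated roots and 3.44, 3.51 and 3.44 on the ground. All 3 first-actuated arrays were above all 3 last-actuated arrays, and these above all 3 ground arrays. The first-actuated mean was 4.04 ± 0.11 (SD, n = 3) against 3.46 ± 0.041 on the ground, a 1.49-fold rise (difference 0.58 ± 0.097 (SE), limma adjusted p = 0.00817).

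UGT73B3, needed together with UGT73B5 for full resistance to a bacterial pathogen, read 2.86, 3.6 and 3.6 in the first-actuated roots, 3.25, 2.86 and 2.68 in the last-actuated roots and 2.12, 2.33 and 2.59 on the ground. No flight array overlapped the ground arrays, while the flight tubes overlapped each other. The mean was 3.35 ± 0.43 in first-actuated and 2.35 ± 0.24 in ground roots (SD, n = 3 each), a 2.01-fold rise (1.01 ± 0.22 (SE), limma adjusted p = 0.0334). First-actuated replicate 1 lay 0.74 below its partners, and without it the difference was 1.25.

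UGT73B1, the remaining neighbour on chromosome 4, read 5.25, 5.55 and 5.30 in first-actuated, 5.25, 5.10 and 5.13 in last-actuated and 5.10, 5.45 and 5.36 in ground roots. The 3 tubes overlapped. Its difference between first-actuated and ground roots was 0.067, with a 95% interval of -0.21 to 0.35 (limma adjusted p = 0.861).

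UGT73B4, whose product glucosylates reduction products of the explosive TNT, read 6.19, 6.35 and 6.25 in the first-actuated roots, 6.33, 6.60 and 6.39 in the last-actuated roots and 5.47, 5.72 and 5.90 on the ground. Every flight array stood above every ground array. Means were 6.26 ± 0.077 in first-actuated and 5.70 ± 0.22 in ground roots (SD, n = 3 each), a 1.48-fold rise (0.56 ± 0.13 (SE), limma adjusted p = 0.0375).

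UGT73B5, the direct neighbour of UGT73B4, read 4.57, 4.80 and 4.83 in first-actuated, 4.58, 4.53 and 4.43 in last-actuated and 3.53, 3.94 and 4.08 in ground roots. Again every flight array stood above every ground array, and ground replicate 1 was the lowest of the 9. The first-actuated mean of 4.73 ± 0.15 was 1.84-fold the ground mean of 3.85 ± 0.29 (SD, n = 3 each), with a difference of 0.88 ± 0.15 (SE) and a limma adjusted p of 0.00797.

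**Figure D1:**
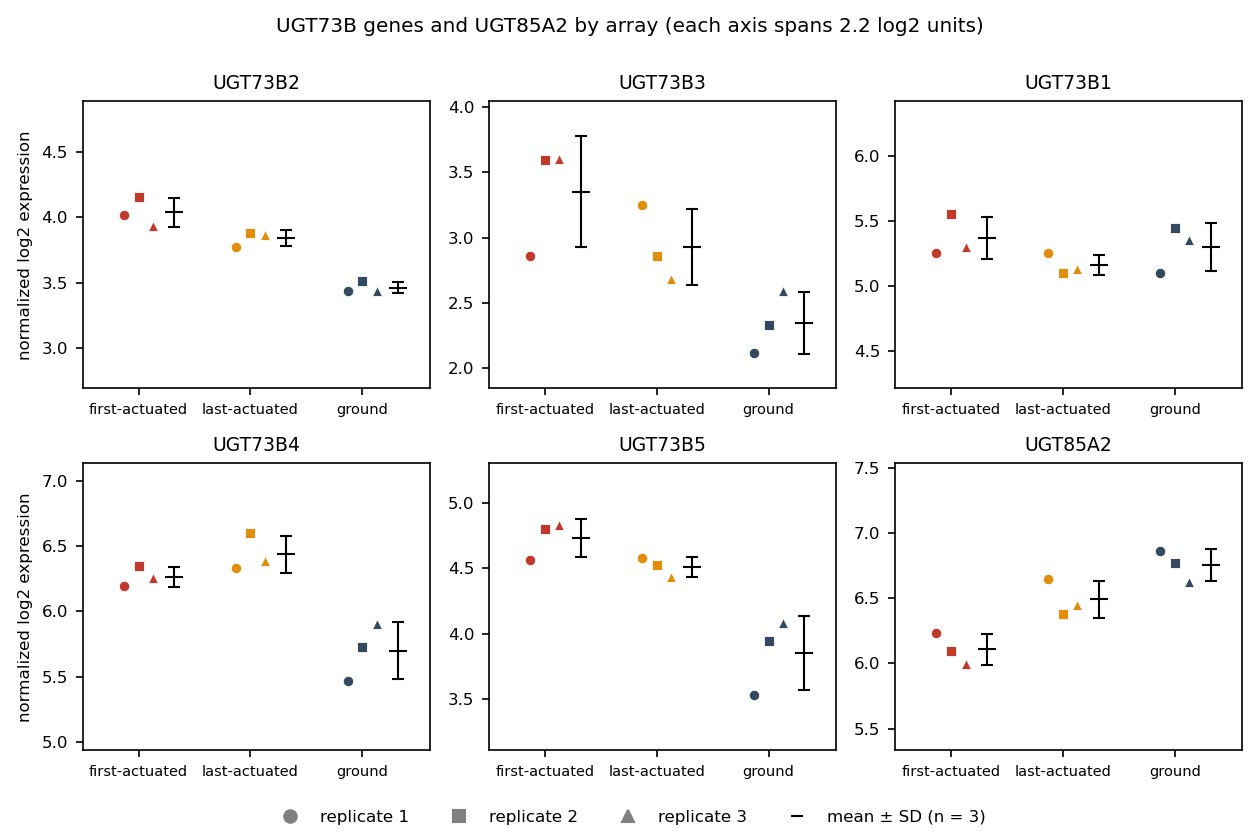
Normalized log2 expression (y) of the 5 UGT73B genes and UGT85A2 in first-actuated, last-actuated and ground roots (x). Each point is 1 array, shaped by replicate, and the bar is the mean ± SD of 3 arrays. Every flight array of UGT73B2, UGT73B3, UGT73B4 and UGT73B5 lies above every ground array, the 3 tubes overlap for UGT73B1, and the first-actuated arrays of UGT85A2 are the lowest.

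UGT85A2 (AT1G22360) was the member that fell. It read 6.23, 6.10 and 6.00 in first-actuated, 6.65, 6.38 and 6.44 in last-actuated and 6.86, 6.77 and 6.62 in ground roots. The first-actuated arrays were below all others, while the last-actuated and ground arrays overlapped. Its level fell to 6.11 ± 0.12 in first-actuated roots, against 6.75 ± 0.12 on the ground (SD, n = 3 each), a difference of -0.65 ± 0.12 (SE) with a limma adjusted p of 0.0117. On chromosome 1 it is a direct neighbour of UGT85A7 and UGT85A5, and UGT85A3 lies next to UGT85A5. These 3 neighbours had differences of -0.015, 0.060 and 0.037, none of them called, and UGT85A4, which lies elsewhere, had -0.067. The 9-array means of all these other UGT85A genes were below the median gene mean of 2.15.

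UGT73B2 and UGT73B5 were called in all 9 fits that left out 1 array, where the highest limma adjusted p was 0.0393 for UGT73B2 and 0.0474 for UGT73B5. UGT85A2 lost its call without first-actuated replicate 2 or 3 (adjusted p = 0.0509 and 0.0614). The call of UGT73B4 was kept only without last-actuated replicate 2 or ground replicate 3 (0.0462 and 0.0353), and reached 0.136 otherwise. The call of UGT73B3 was kept without first-actuated replicate 1 or last-actuated replicate 1 or 3 (0.0128, 0.0394 and 0.0489), and reached 0.142 otherwise. Both the number of UGT calls and that over all genes changed when 1 array was left out, from 5 of 776 with all arrays. They were 2 of 422 without first-actuated replicate 2 and 2 of 384 without first-actuated replicate 3. Without ground replicate 1 they were 3 of 558, and without ground replicate 2 they were 7 of 1253. UGT calls were 4 in each other fit, of 423 without first-actuated replicate 1 and 449 without ground replicate 3. Without last-actuated replicate 1, 2 or 3 the 4 were of 688, 628 and 601. The lowest UGT counts thus came with the lowest totals and the highest with the highest total. In between, 4 UGT calls came with totals from 423 to 688.

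**Figure D2:**
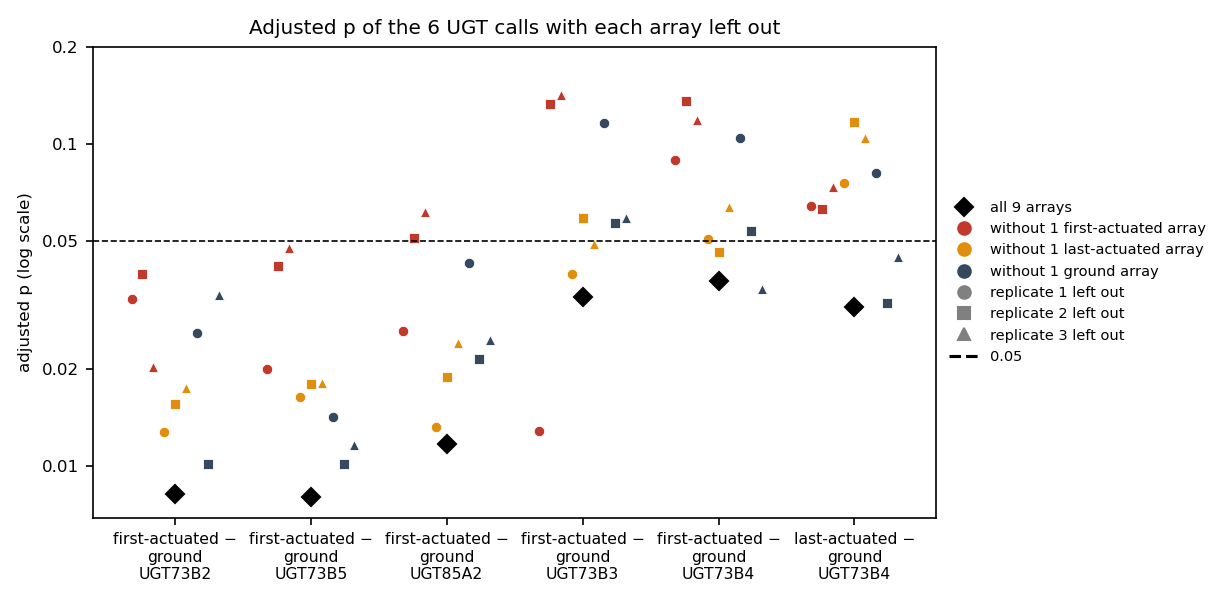
Adjusted p of limma (y, log scale) for the 6 UGT calls (x), with all 9 arrays (black diamonds) and with each array left out in turn, coloured by the tube and shaped by the replicate left out. The broken line marks 0.05. All points of UGT73B2 and UGT73B5 lie below it, and most of those of UGT73B3 and UGT73B4 lie above it.

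UGT71B5 (AT4G15280) and UGT72E1 (AT3G50740), an enzyme that glucosylates coniferyl and sinapyl aldehyde on the way to lignin, had the widest differences among the uncalled genes. UGT71B5 read 6.12, 6.66 and 6.47 in first-actuated, 5.80, 5.27 and 5.42 in last-actuated and 4.61, 5.76 and 5.72 in ground roots. UGT72E1 read 5.82, 5.58 and 5.76 in first-actuated, 4.72, 4.98 and 4.67 in last-actuated and 4.08, 5.14 and 5.19 in ground roots. For both genes the first-actuated arrays were above all others, the last-actuated arrays lay within the ground range or just above it, and ground replicate 1 was about 1 unit below the other ground arrays (by 1.13 and 1.08).

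Neither gene passed the test against the ground. The difference of UGT71B5 was 1.05, with a 95% interval of 0.41 to 1.70 (limma adjusted p = 0.0760), and that of UGT72E1 was 0.91, from 0.34 to 1.48 (0.0803). Without ground replicate 1 they were 0.68 and 0.55 (adjusted p = 0.119 and 0.0601). Without ground replicate 2 they were 1.25 and 1.08 (0.0427 and 0.0461). Among genes above the median of gene means alone, both were called (adjusted p = 0.0369 and 0.0404).

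The values of 3 first-actuated and 3 ground arrays did not overlap for 8 UGT genes that were higher (15.7%), beside 9.41% of all genes, and for 3 that were lower (5.88%), beside 9.0%. The higher ones were the 4 called UGT73B genes, UGT71B5, UGT71C1, UGT72E1 and UGT76E12, and the lower ones UGT71B1, UGT74D1 and UGT85A2. For UGT76E12 and UGT74D1 this holds for the probe set used alone. Their other probe sets had differences of opposite sign, -0.23 and 0.76. At an unadjusted p under 0.05 there were 8 higher and 5 lower UGT genes (25.5% together), beside 16.9% of all genes.

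**Figure D3:**
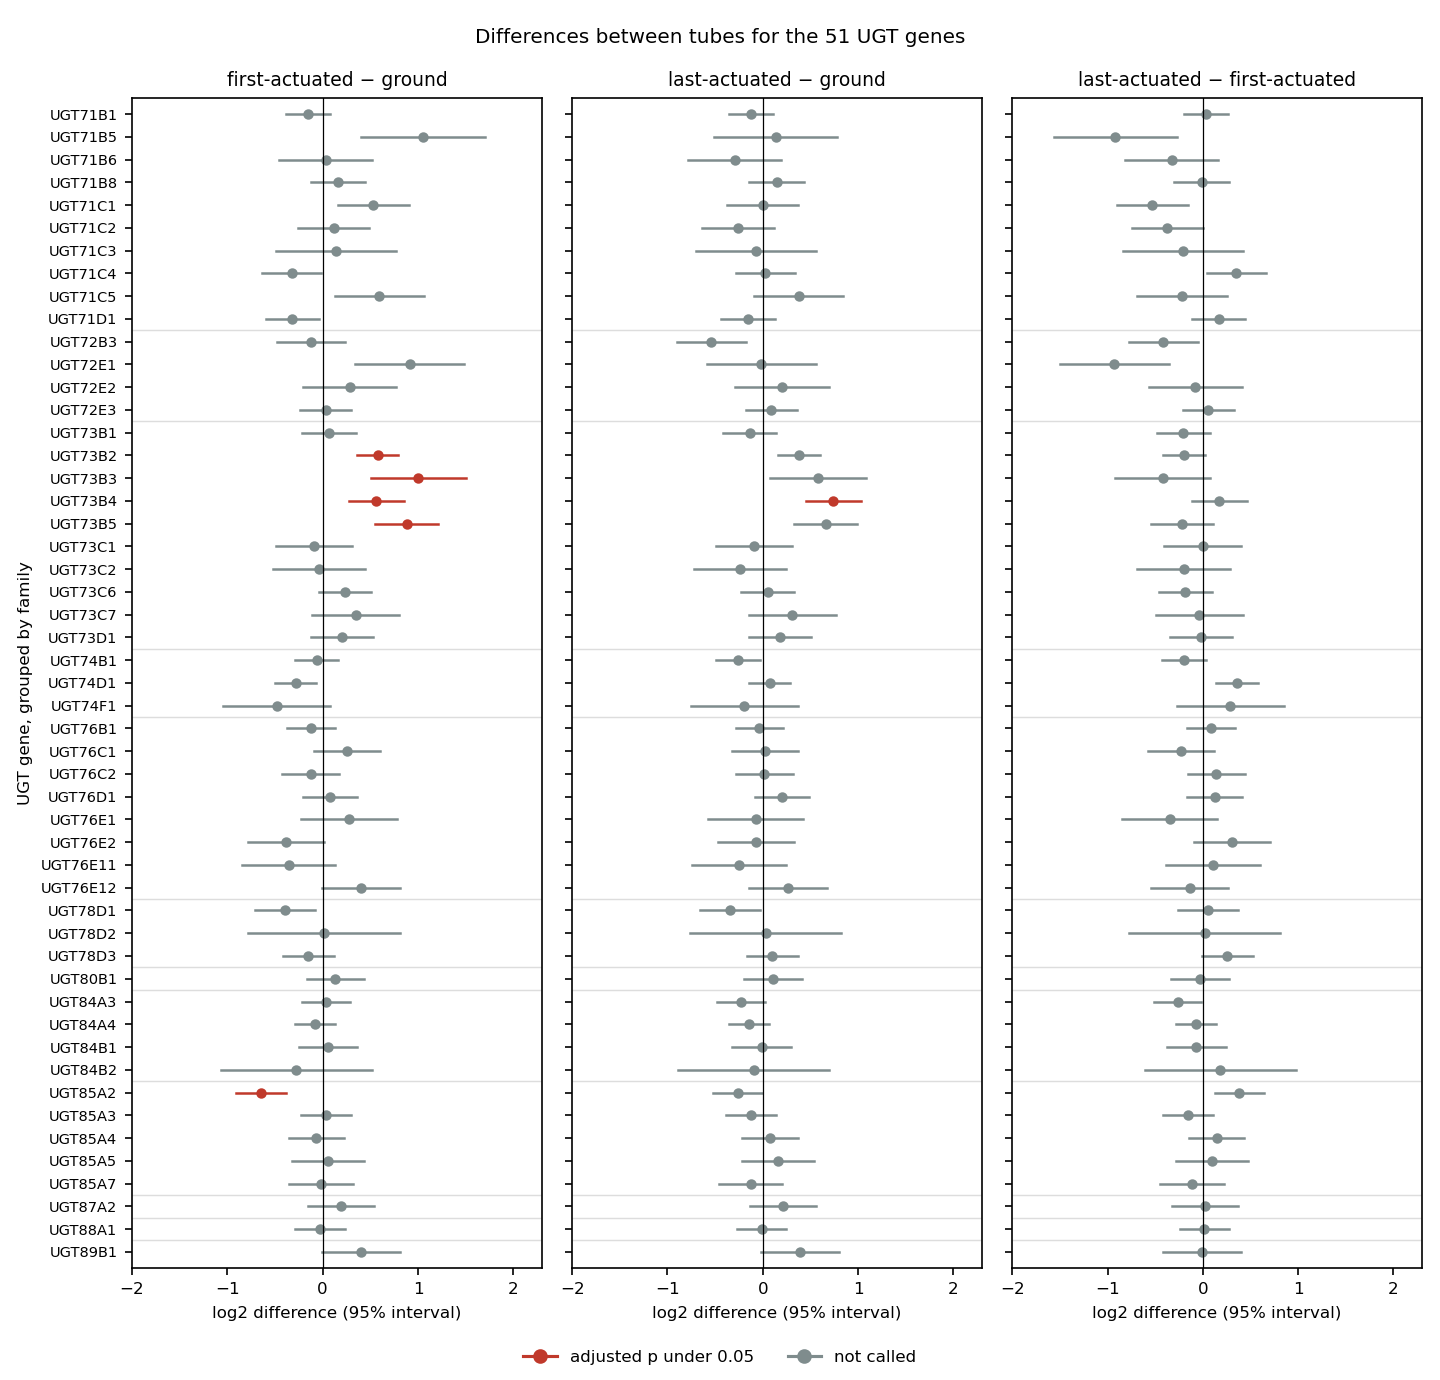
Log2 difference (x) with its 95% interval from limma for each of the 51 UGT genes (y, grouped by family), for first-actuated minus ground, last-actuated minus ground and last-actuated minus first-actuated roots. Genes with an adjusted p under 0.05 are red. The called rises are all UGT73B genes, the 1 called fall is UGT85A2, and no gene is called between the flight tubes.

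The second comparison asked which UGT genes differed from the ground after about 1.5 min of level flight. UGT73B4 was the 1 member called. It rose to 6.44 ± 0.14 in last-actuated roots, against 5.70 ± 0.22 on the ground (SD, n = 3 each), 1.67-fold (0.74 ± 0.13 (SE), limma adjusted p = 0.0312). That is 1.96% of the members, beside 0.580% of all genes, and 0 of 51 fell by limma, beside 0.332%. At an unadjusted p under 0.05 there were 4 higher and 4 lower UGT genes (15.7% together), beside 12.4% of all genes. The call was kept only without ground replicate 2 or 3 and was lost without any 1 other array (adjusted p = 0.0629 to 0.117).

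The other UGT73B genes that rose right after microgravity were not called here. UGT73B5 was at 4.51 ± 0.075 in last-actuated roots (SD, n = 3), a difference of 0.66 (limma adjusted p = 0.0804), UGT73B2 at 3.84 ± 0.060, a difference of 0.38 (0.123), and UGT73B3 at 2.93 ± 0.29, a difference of 0.58 (0.329). Their 95% intervals were 0.33 to 0.99, 0.16 to 0.60 and 0.081 to 1.08. UGT85A2 had a difference of -0.26 (0.397), and UGT73B1 of -0.14. This comparison and the previous one share the 3 ground arrays, so their values are given side by side and their likeness was not tested.

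The median difference of the 51 genes was 0.0018, beside 0.026 over all genes, with 26 positive and 25 negative. The last-actuated and ground values did not overlap for 5 higher UGT genes (9.80%, beside 7.26% of all genes), which were UGT73B2, UGT73B3, UGT73B4, UGT73B5 and UGT76E12, and for 2 lower ones (3.92%, beside 5.40%), UGT72B3 and UGT74B1. UGT72B3 read 1.69, 2.12 and 2.18 in last-actuated, against 2.47, 2.48 and 2.66 in ground roots (difference -0.54, limma adjusted p = 0.195). UGT74B1, which makes the glucosinolate core, read 3.62, 3.73 and 3.53 in last-actuated, against 3.96, 3.76 and 3.94 in ground roots (difference -0.26, 0.340).

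The third comparison set the last-actuated against the first-actuated roots, the same arrays that were set against the ground above. By limma 0 of 51 UGT genes were higher and 0 lower, beside 0.985% and 1.26% of all genes. At an unadjusted p under 0.05, 3 were higher and 5 lower (15.7% together), beside 13.4% of all genes. The median difference was -0.027, beside 0.011 over all genes, with 21 positive and 30 negative. For the UGT73B genes the differences and 95% intervals were -0.20 (-0.41 to 0.018) for UGT73B2, -0.42 (-0.92 to 0.079) for UGT73B3, 0.18 (-0.12 to 0.47) for UGT73B4, -0.22 (-0.55 to 0.11) for UGT73B5 and -0.20 (-0.48 to 0.075) for UGT73B1. The smallest adjusted p values belonged to UGT74D1 (0.36, limma adjusted p = 0.109), UGT72E1 (-0.93, 0.111), UGT85A2 (0.38, 0.149), UGT71C1 (-0.53, 0.165) and UGT71B5 (-0.92, 0.166). The other probe set of UGT74D1 had -0.24 in this comparison, so the direction of that gene is not settled.

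Leaving out ground replicate 1, which enters this comparison only through the shared estimate of the spread, gave 2 UGT calls. Calls over all genes rose too, from 371 to 495. UGT72E1 then had an adjusted p of 0.00557 and UGT71B5 of 0.0281 by limma, with the same differences. Without any other single array neither gene was called (0.0953 to 0.293 and 0.145 to 0.418). UGT72E1 was also called with array weights and when the 2 flight tubes were fitted alone.

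The last-actuated and first-actuated values did not overlap for 3 higher UGT genes (5.88%, beside 9.01% of all genes), UGT74D1, UGT76E2 and UGT85A2. They did not overlap for 8 lower ones (15.7%, beside 9.09%), UGT71B5, UGT71C1, UGT71C5, UGT72E1, UGT73B2, UGT74B1, UGT84A3 and UGT84A4. By the moderated F test of limma over the 3 tubes, UGT73B5 (adjusted p = 0.0168), UGT73B2 (0.0194), UGT73B4 (0.0208) and UGT85A2 (0.0283) differed, 7.84% of the members beside 4.45% of all genes. UGT73B3 had 0.0701. In place of 4 genes, the F test called 0 when first-actuated replicate 2 was left out, 1 when first-actuated replicate 3 was, 2 when first-actuated replicate 1 or last-actuated replicate 3 was, and 6 when ground replicate 2 was. Calls of the F test over all genes were not counted in these fits. A change over all genes and one of the UGT genes alone therefore cannot be told apart here.

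**Figure D4:**
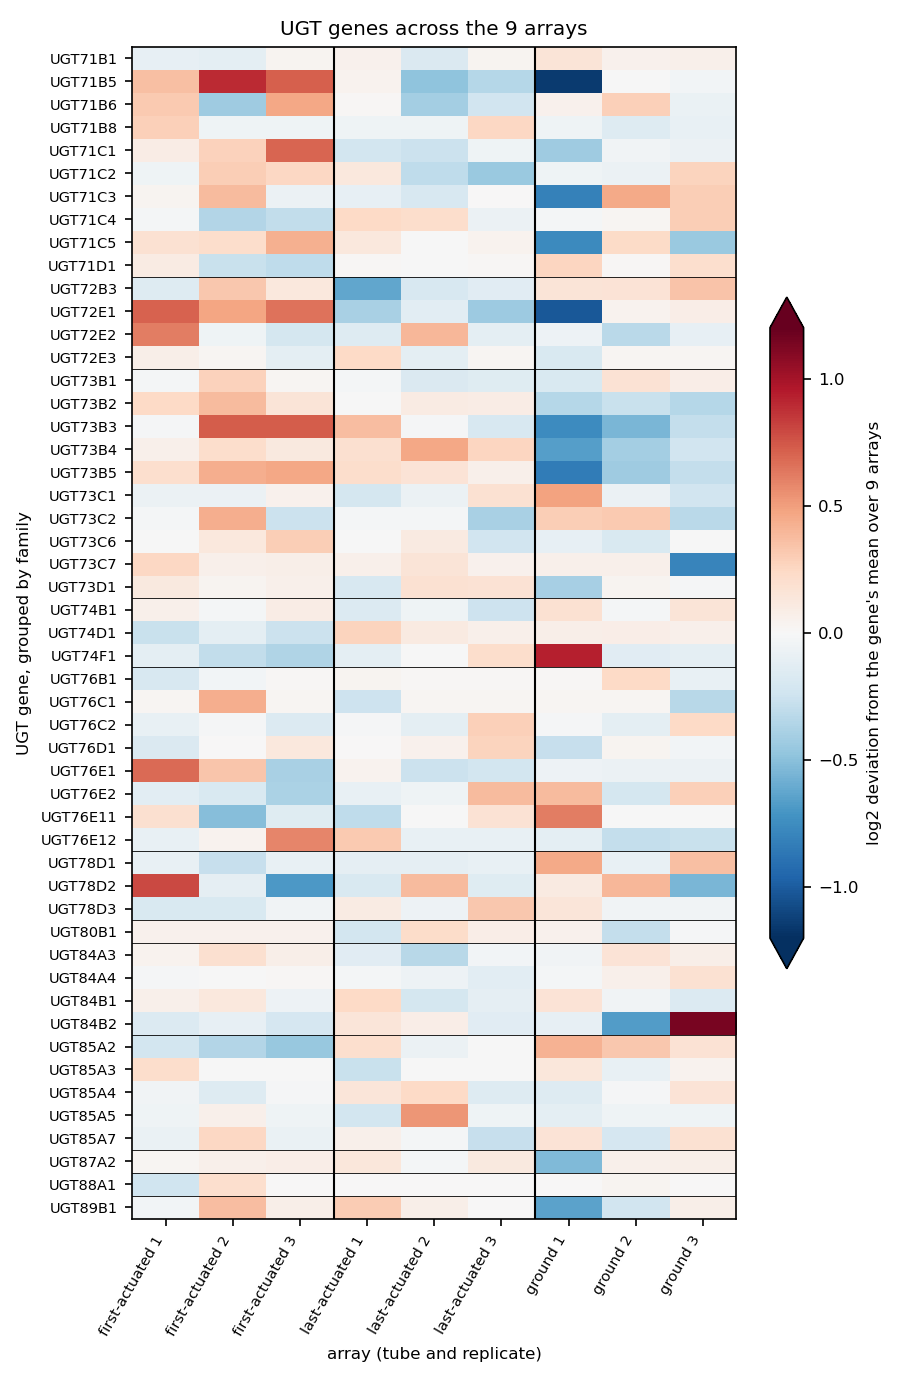
Deviation of each UGT gene (rows, grouped by family) from its own mean over the 9 arrays, on the log2 scale, in each array (columns, by tube and replicate). Red is above and blue below the mean. The UGT73B genes other than UGT73B1 are blue in the ground arrays, and ground replicate 1 is the bluest array for UGT71B5, UGT71C3, UGT71C5, UGT72E1, UGT87A2 and UGT89B1.

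Family 71 had 10 members and no call. It includes enzymes that glucosylate abscisic acid, UGT71B6, UGT71B8 and UGT71C5, and an enzyme of methyl salicylate, UGT71C3. The family's differences between first-actuated and ground roots were -0.32 to 1.05 with a median of 0.13, and those between last-actuated and ground roots -0.30 to 0.38. UGT71C5 read 4.22, 4.24 and 4.45 in first-actuated, 4.16, 4.03 and 4.07 in last-actuated and 3.27, 4.26 and 3.59 in ground roots. Its difference between first-actuated and ground roots was 0.60 (limma adjusted p = 0.170), and without ground replicate 2, the highest ground array, it was 0.87 (0.00442), and without ground replicate 1, the lowest, 0.38 (0.408). UGT71C3 read 3.89 to 4.34 in first-actuated and 3.78 to 3.97 in last-actuated roots, all within the range of the ground arrays at 3.15, 4.42 and 4.26. UGT71C4, which lies between UGT71C3 and UGT71C5, and UGT71C5 had first-actuated minus ground differences of opposite sign, -0.32 and 0.60, neither of them called.

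Outside subfamily B, the 5 other members of family 73 had no call. UGT73C6, which acts on brassinosteroids and flavonols, had a first-actuated minus ground difference of 0.23. UGT73C1, an enzyme that can glucosylate cytokinins and TNT products, had -0.092, and UGT73C2, UGT73C7 and UGT73D1 had -0.038, 0.35 and 0.20. In family 72, UGT72E2 and UGT72E3, which glucosylate monolignols, had 0.28 and 0.034 beside the 0.91 of UGT72E1, and both lay below the median gene mean.

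Among the enzymes of hormones, no member was called in any of the 3 comparisons with the probe set used. Over all genes 3.02% rose and 1.67% fell between first-actuated and ground roots, so no call among so few genes says little about them. UGT74D1, an auxin enzyme, has another probe set that was not used. That probe set rose in first-actuated over ground roots in the fit over all probe sets (0.76, limma adjusted p = 0.0336). The cytokinin N-glucosyltransferases UGT76C1 and UGT76C2, direct neighbours on chromosome 5, had first-actuated minus ground differences of 0.26 and -0.12 and last-actuated minus ground differences of 0.028 and 0.017. The auxin enzymes UGT84B1 and UGT84B2 had 0.057 and -0.28 between first-actuated and ground roots. UGT84B2 read 1.67 to 1.78 in first-actuated and 1.74 to 2.02 in last-actuated roots, against 1.78, 1.21 and 3.02 on the ground, the widest range of any member within a tube.

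UGT74F1 and UGT76B1, which glucosylate salicylate, had first-actuated minus ground differences of -0.48 and -0.12. UGT74F1 read 1.05 to 1.62 on 8 arrays and 2.34 on ground replicate 1. UGT76B1 was steady, at 6.62 to 6.82 in first-actuated, 6.82 to 6.84 in last-actuated and 6.72 to 7.05 in ground roots, and the 95% interval of its first-actuated minus ground difference was -0.37 to 0.13. UGT76D1, an enzyme of dihydroxybenzoates, had 0.077, and the 4 UGT76E genes had -0.38 to 0.40.

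Of the flavonol enzymes, 3 of 8 on the list were measured and none was called. UGT78D2, the flavonol 3-O-glucosyltransferase, had a difference of 0.014 between first-actuated and ground roots, with a wide 95% interval of -0.78 to 0.81, since its first-actuated arrays read 3.34, 2.43 and 1.86. UGT78D3, which adds arabinose, had -0.15. UGT78D1, which adds rhamnose, read 1.18, 0.99 and 1.18 in first-actuated, 1.16, 1.16 and 1.18 in last-actuated and 1.72, 1.18 and 1.63 in ground roots. Its differences from the ground of -0.39 and -0.34 were called only without ground replicate 2 (limma adjusted p = 0.0136 and 0.0400), and all 9 values lay below the median gene mean.

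The hydroxycinnamate enzymes UGT84A3 and UGT84A4, direct neighbours on chromosome 4, had first-actuated minus ground differences of 0.036 and -0.078 and last-actuated minus ground differences of -0.23 and -0.15. UGT80B1, a sterol enzyme, had 0.13 and 0.11. UGT87A2, linked to flowering time, read 7.81, 7.84 and 7.86 in first-actuated, 7.92, 7.76 and 7.90 in last-actuated and 7.25, 7.84 and 7.85 in ground roots, so that ground replicate 1 stood alone. UGT88A1 and UGT89B1, the single genes of their families among the 51 members, had first-actuated minus ground differences of -0.027 and 0.40. None of these 6 genes was called in any comparison.

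Ground replicate 1 was the lowest of the 9 arrays for 14 of the 51 members, beside 18.3% of all genes. Among the 28 members above the median gene mean it was the lowest for 13, beside 22.3% of all genes at that level. Ground replicates 2 and 3 were the lowest of the 9 for 5 and 4 members.

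A total of 23 members had a 9-array mean below the median gene mean of 2.15, and 11 of these were below the lower quartile of 1.41. Detection calls were not used here, so how many of these members stood above background was not measured. Standard errors of the differences ran from 0.094 to 0.36. All 5 called genes had means above 2.15, with UGT73B3 the nearest at 2.88, and no member below that level was called in any comparison.

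Along the chromosomes, 35 of the 51 members lay in 14 blocks of neighbours, with at most 2 other protein-coding genes between members of a block. The 2 UGT73B blocks were the ones with more than 1 called gene. In the block of UGT71D1, UGT71C2 and UGT71C1 on chromosome 2 the first-actuated minus ground differences were -0.32, 0.11 and 0.53, and in that of UGT76E12 and UGT76E11, with 1 gene between them, they were 0.40 and -0.36. No gene of either block was called. Both UGT76E genes lay below the median gene mean, and the other probe set of UGT76E12 had -0.23. Probe sequences were not used here, so signal shared between near-identical neighbours such as UGT73B2 and UGT73B3 could not be assessed.

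Of the genes around UGT enzymes, 98 were listed in 9 pathway lists and 11 of them, in 5 lists, were measured. The auxin conjugation and oxidation list had 7 of 11 members measured. Of these, 1 rose and 0 fell between first-actuated and ground roots, beside 3.02% and 1.67% of all genes. With so few genes measured, 1 call says little about the list. The list median was 0.15, beside 0.0098 over all genes. GH3.3, which joins auxin to amino acids as UGT84B1 joins it to glucose, read 6.76, 6.51 and 6.65 in first-actuated, 5.46, 5.71 and 5.63 in last-actuated and 4.51, 5.59 and 4.93 in ground roots. It rose by 1.63 in first-actuated over ground roots (limma adjusted p = 0.00291) and fell by 1.04 in last-actuated against first-actuated roots (adjusted p = 0.0478). The single measured members of the flavonoid (DFR), detoxification (GSTU25), cytokinin (ARR15) and salicylate (BSMT1) lists had first-actuated minus ground differences of 0.018, -0.40, 0.24 and 0.089, and none was called. The phenylpropanoid, indole glucosinolate, abscisic acid and UDP-glucose supply lists were not analysed here.

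**Figure D5:**
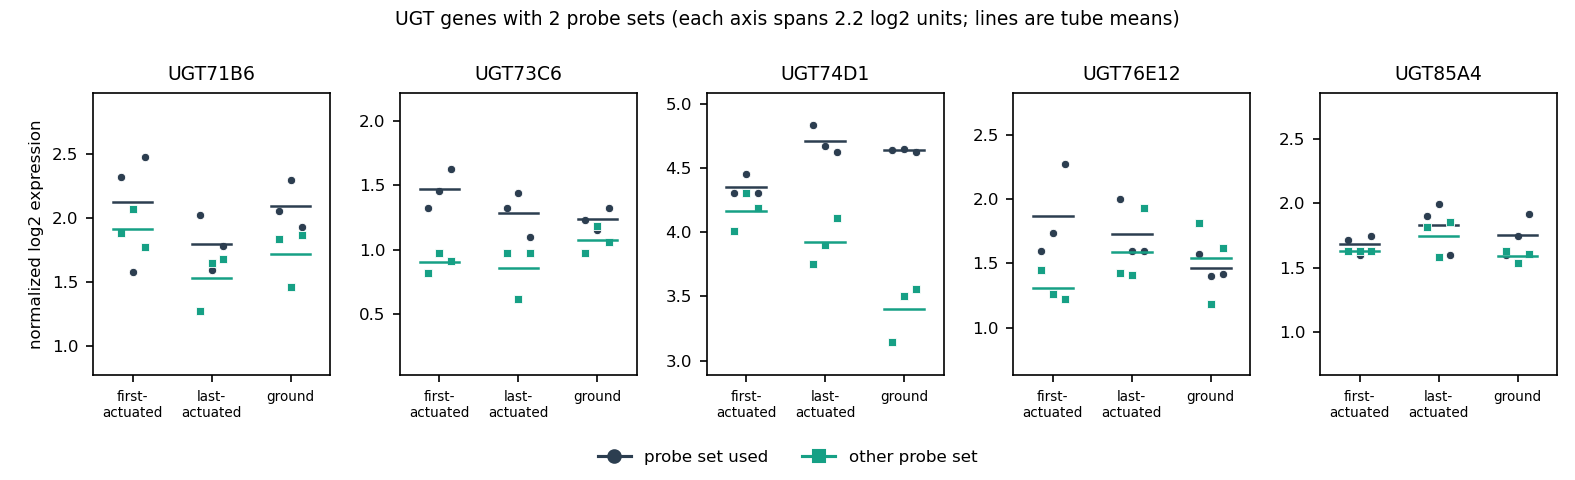
Normalized log2 expression (y) in each tube (x) for the 5 UGT genes with 2 probe sets. Dark circles are the probe set used, green squares the other one, each point is 1 array and lines are tube means of 3 arrays. The 2 probe sets of UGT74D1 run opposite ways between first-actuated and ground roots.

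Of the 51 members, 5 had 2 probe sets, and the one with the higher mean was used. For UGT71B6 and UGT85A4 both gave uncalled differences of at most 0.19 between first-actuated and ground roots. For UGT73C6 they gave 0.23 and -0.17, and for UGT76E12 0.40 and -0.23, with means below the median gene mean and no call. UGT74D1, which glucosylates auxins and the oxidized form of auxin, had probe sets of opposite direction. The one used read 4.30, 4.45 and 4.31 in first-actuated, 4.83, 4.67 and 4.63 in last-actuated and 4.64, 4.65 and 4.63 in ground roots, a first-actuated minus ground difference of -0.28 (limma adjusted p = 0.158). The other probe set had a first-actuated minus ground difference of 0.76 and was tested only in the fit of limma over all probe sets (adjusted p = 0.0336). With the mean of both probe sets, the first-actuated minus ground difference of UGT74D1 was 0.24 (adjusted p = 0.270).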

How the data were processed

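Whole-root RNA from 9 samples, 3 from each tube, was hybridized to 1-colour arrays. The deposited values are log2 expression values. Per the submitters' processing notes the tools were RMA, oligo, limma and R 4.0.0, with TAIR10 as the build. Further settings were not stated there. The table held 38408 probe sets, of which 16722 named 1 gene, 759 several and 20927 were not listed. The 16550 genes were tested, each with its brightest probe set. All 51 UGT symbols matched the gene table, which served for names and gene order alone.

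A model of the 3 tubes was fitted with limma 3.58.1 in R 4.3.3, with 6 residual and 3.89 prior degrees of freedom. Fits were tested on simulated data. The number of arrays limits the precision. Figures used Python 3.11.15 and matplotlib 3.10.9.

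The members, lists, tests and alternatives were chosen with earlier results of these data known. The rule named each called UGT gene, the member of highest mean in each family, the measured members of the role lists and called members of the pathway lists. Named outside it, after their values were seen, were UGT71B1, UGT71C1, UGT71C2, UGT71C4, UGT71D1, UGT72B3, UGT73C2, UGT73C7, UGT73D1, the UGT76E genes, the UGT85A genes other than UGT85A2, DFR, GSTU25, ARR15 and BSMT1. Alternatives were other normalizations, filters, moderation, array weights, a replicate block, other probe sets, 2-tube fits and leaving out arrays. The counts of groups without overlap, the rule for neighbours and the test of second probe sets were chosen after seeing the data.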

Additional observations from a re-analysis of the deposited data

Results flagged for a closer look

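The probe set of UGT74D1 that the comparisons did not use read 4.01, 4.30 and 4.19 in first-actuated, 3.75, 3.90 and 4.11 in last-actuated and 3.14, 3.5 and 3.56 in ground roots. All flight arrays were above all ground arrays. In the fit over all 38408 probe sets it was 0.76 higher in first-actuated than in ground roots (1.70-fold, limma adjusted p = 0.0336), where 3.4% of probe sets were called. It stood out as a signal in data that no comparison used. The probe set that was used had -0.28 in the same fit (adjusted p = 0.196). The gap between them was 0.12 to 0.30 in first-actuated, 0.51 to 1.08 in last-actuated and 1.07 to 1.50 in ground roots. Where each probe set lies in the gene, and on which strand, was not analysed here, and the cause of the difference was not tested.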

How the results depend on the processing

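Of 2805 single-gene results under the alternatives, 2763 kept their side of the threshold, 29 lost a call and 13 gained one. No called value changed sign, and 116 uncalled values did. UGT73B2 and UGT73B5 were called against the ground in first-actuated roots under all 19 alternatives, UGT85A2 under 17, and UGT73B3 and UGT73B4 under 10 each. The count of 5 UGT calls in that comparison, of 776 calls over all genes, was 3 with all probe sets tested (of 1306 calls), 3 with only the 2 tubes fitted (of 419), 7 among genes above the median of gene means (of 998, UGT71B5 and UGT72E1 gained) and 2 to 7 when 1 array was left out. The count of 1 in last-actuated against ground roots, of 151 over all genes, was 2 among genes above the median of gene means (of 255). It was 0 with all probe sets (of 228), 0 with 2 tubes (of 28), and 0 to 3 when 1 array was left out. The count of 0 between flight tubes, of 371 over all genes, was 1 with array weights (of 597) and 1 with 2 tubes (of 414). It was 0 to 2 when 1 array was left out, and the F test's 4 was then 0 to 6. The median UGT difference between first-actuated and ground roots was 0.060 after another quantile normalization, 0.14 among genes above the median, 0.057 with the mean over probe sets and 0.017 to 0.078 without 1 array. Between last-actuated and ground roots it was 0.028 above the lower quartile, 0.053 above the median and -0.018 to 0.055 without 1 array. Between flight tubes it was -0.066 after quantile normalization, -0.058 after cyclic loess and -0.072 to -0.021 without 1 array. The causes were not tested. With the replicate number as a block, 4 UGT genes were called between first-actuated and ground roots, UGT73B3 being lost (adjusted p = 0.0548). The labels give no pairing. Deviations of same-numbered arrays of different tubes correlated at -0.11 to 0.070, and those of differently numbered arrays at -0.11 to 0.14. No sign of pairing by number was seen, which does not exclude it.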

Other observations

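Many members had a value that recurred exactly on several arrays. UGT76C1 read 4.16 and UGT88A1 2.18 on 6 of 9 arrays each, UGT71B8 read 1.22 and UGT85A5 2.03 on 5, and UGT76B1 read 6.82 on 4. A value shared by at least 3 arrays was found for 19 members (37.3%), beside 38.3% of all genes, and by at least 4 for 10 (19.6%), beside 21.0%. The SD of such a gene within a tube can be small for this reason alone.

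Another 4 genes of the UGT superfamily were listed under other symbols (GT72B1, UF3GT, SGT and AT5G54010) and were not members. None was called in any comparison by limma. Both probe sets that name UGT84A1 also name AT4G15475, so they were not assigned to a gene. They had first-actuated minus ground differences of 0.17 and 0.15, with limma adjusted p of 0.700 and 0.705 over all probe sets.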
